A study of Mus musculus with 6 samples.

Results

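The genes described here encode the subunits of the mTOR complexes and the proteins that act directly on them. The members were chosen by name, without regard to their values, as the rows of the count table for *Mtor*, *Rptor*, *Mlst8*, *Akt1s1*, *Deptor*, *Rictor*, *Mapkap1*, *Tsc1*, *Tsc2* and *Rheb*. They are 10 of the 27506 genes in the table, and all 10 passed the filter on low counts and were among the 19330 genes tested.

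mTOR is a serine/threonine kinase that works in a pair of complexes. mTORC1, defined by raptor, responds to growth factors, amino acids and energy supply and controls protein synthesis, lipid synthesis and autophagy, whereas mTORC2, defined by rictor, phosphorylates Akt and related kinases downstream of growth factors. The TSC complex restrains mTORC1 by switching off the small GTPase Rheb, which otherwise activates the kinase at the lysosome surface. These proteins are regulated largely by phosphorylation, binding and location, none of which is read by a measurement of transcripts.

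Dental pulp was dissected from mandibular first molars of C57BL/6 mice at P3.5, and RNA-seq libraries from 3 *Ror2*fl/fl control samples and 3 *Osr2-Cre;Ror2*fl/fl samples were compared. Ror2 is a receptor tyrosine kinase of non-canonical Wnt signaling. Both groups carried floxed *Ror2* alleles, and the mutant samples also carried Cre under *Osr2*, which according to the study acts in the dental mesenchyme and alveolar bone around the molar and not in the dental epithelium. Since no control is labelled as carrying Cre, an effect of Cre itself and an effect of losing *Ror2* cannot be told apart. The labels do not state that each library came from a separate animal, so p-values measure the spread between these samples, which may be technical. They also carry identifiers that differ between the groups and, within the controls, between library 1 and the others. Among these is a letter code, WW for control library 1, OW for the other controls and OR for the mutants. What the letters stand for, and whether they concern Cre, is not given. A batch that coincides with genotype cannot be told apart from it.

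The libraries held 56134770 to 62628940 estimated counts. *Ror2* itself was 38.2, 36.2 and 36.7 CPM (counts scaled to a common library size) in control libraries 1, 2 and 3 and 27.9, 28.1 and 26.3 CPM in mutant libraries 1, 2 and 3. The groups did not overlap, and the log2 fold change of -0.43 (standard error 0.08) passed edgeR's quasi-likelihood test (adjusted p = 0.0134). The test was not passed without control library 2 (edgeR adjusted p = 0.0664) or without control library 3 (edgeR adjusted p = 0.0752). All exons are counted, so transcripts with and without the floxed part are not separated. Of the genes tested, 20.2% were called at an adjusted p under 0.05, 10.4% higher and 9.84% lower in mutant libraries, and the groups did not overlap for 44.7%. Markers of other cells were present in the tissue labelled dental pulp. The summed level of 10 markers of dental epithelium, led by amelogenin (*Amelx*), was 171900 to 192100 CPM in control and 185300 to 255700 CPM in mutant libraries, and none of them passed the test. The 10 markers of dental mesenchyme summed to 503 to 578 CPM in control and 584 to 653 CPM in mutant libraries, with 2 higher and 1 lower by the test. The 7 odontoblast markers, led by *Col1a1*, varied more within groups, with 14520 to 46290 CPM in control and 12850 to 35510 CPM in mutant libraries. Skeletal muscle markers were low and lower in mutant libraries (11.4 to 40.1 against 2.96 to 3.93 CPM summed over 8 genes, 7 of 7 tested called lower). No marker listed was at 0 in every library. In such bulk samples, fewer cells of a type and less RNA per cell cannot be told apart, and the part of these markers in the values below was not tested.

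None of the 10 members was called by edgeR after adjustment over the whole table, where 20.2% of all genes did. Without adjustment 6 of the 10 had a p-value under 0.05, against 38.3% of all genes. DESeq2 and limma-trend also called none of the members, where they called 15.6% to 19.1% of all genes. With sample quality weights limma voom called 3 members, where it called 32.8% of all genes. *Mtor*, *Rictor*, *Mapkap1* and *Deptor* were on the lower side among those 6, and *Mlst8* and *Tsc1* on the higher side. The groups did not overlap for 6 of the 10 members, beside 44.7% of all genes tested. In 3 of them every mutant library was below (*Mtor*, *Mapkap1*, *Deptor*), and in 3 every mutant library was above (*Rptor*, *Mlst8*, *Tsc1*). The size of the differences between the groups was near that over all genes. The median absolute log2 fold change was 0.316 over the members and 0.319 over all genes tested. The signed median was -0.04, against 0.01 for all genes. More counts lay behind the members than behind most genes, with a median of 46.0 CPM against 9.86 CPM over all genes tested. The members were not compared with genes of similar level. All values below are CPM scaled by the TMM method, unless stated otherwise, and fold changes are mutant minus control on the log2 scale.

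**Figure D1:**
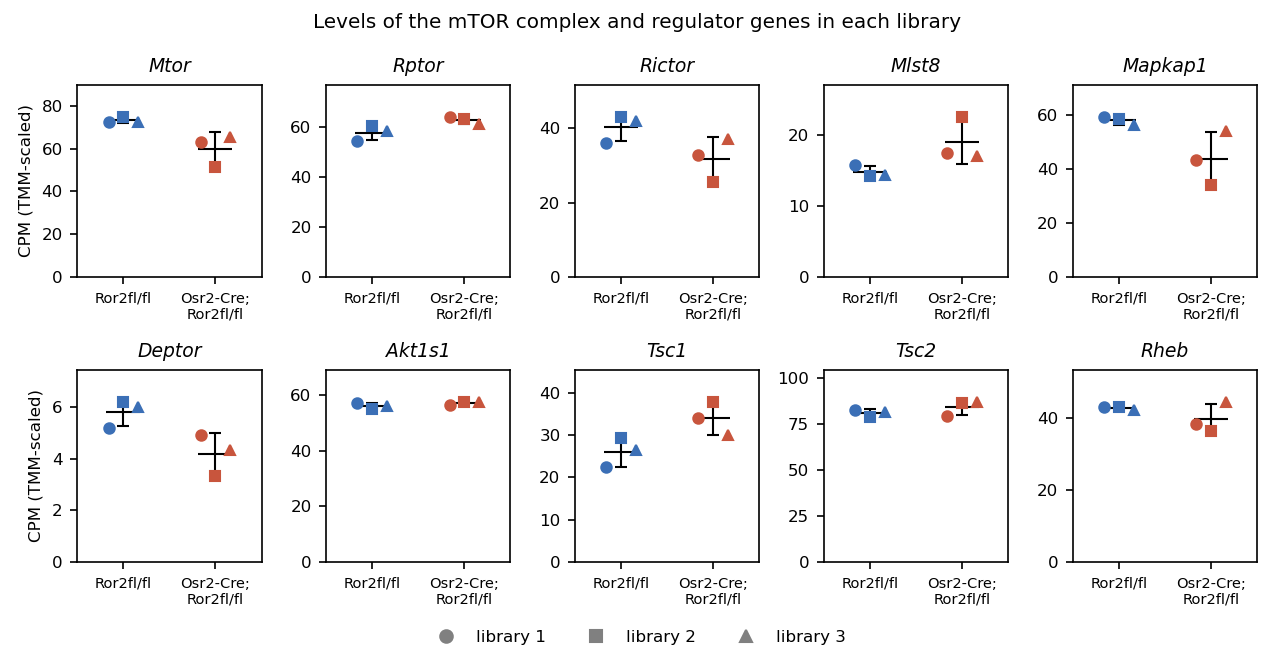
Level of each of the 10 genes in CPM (vertical axes, each starting at 0) in the 3 *Ror2*fl/fl and 3 *Osr2-Cre;Ror2*fl/fl libraries. Points are libraries, marked by number, and the bar and whiskers are the mean and SD. The groups do not overlap for *Mtor*, *Rptor*, *Mlst8*, *Mapkap1*, *Deptor* and *Tsc1*, as for 44.7% of all genes tested. Library 2 is often the mutant library farthest from the controls.

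*Mtor* encodes the kinase shared by both complexes (ENSMUSG00000028991.15; mm10 chromosome 4, 148448611 to 148557683, plus strand). Its level was 72.4, 75 and 72.6 CPM in control libraries 1, 2 and 3, and 63.1, 51.4 and 65.6 CPM in mutant libraries 1, 2 and 3. The controls lay close together and every mutant library was below them. The log2 fold change was -0.29 (standard error 0.11, 95% interval -0.54 to -0.04), with an adjusted p of 0.0907 from edgeR's quasi-likelihood test. Mutant library 2 was the lowest, and without it the fold change was -0.18 (edgeR adjusted p = 0.115, with a range of 0.0504 to 0.253 across the 18 alternatives).

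*Mlst8* encodes the other core subunit common to both complexes, a WD-repeat protein that binds the kinase domain (ENSMUSG00000024142.15; chromosome 17, 24473551 to 24479078, minus strand). It stood at 15.8, 14.2 and 14.3 CPM in the controls and at 17.4, 22.5 and 17.0 CPM in the mutants. Here the mutant libraries lay above every control, again with library 2 farthest away. The fold change was 0.36 (standard error 0.13, 95% interval 0.06 to 0.67, edgeR adjusted p = 0.0856). It was 0.19 with a GC offset (edgeR adjusted p = 0.268) and 0.23 without mutant library 2 (edgeR adjusted p = 0.141), and adjusted p-values ran from 0.0397 to 0.424 across the alternatives. *Mlst8* overlaps *Bricd5* on the other strand over 997 exon bases and 13.7% of its 75-base stretches occur in that gene too. The use of strand in counting is not given in the sources used here. Their counts can therefore have been exchanged. The sum of both gave a nearly equal fold change of 0.36 (edgeR adjusted p = 0.0922).

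*Rptor* encodes raptor, the scaffold of mTORC1 that brings substrates to the kinase (ENSMUSG00000025583.15; chromosome 11, 119602905 to 119899576, plus strand). The controls gave 54.6, 60.5 and 58.4 CPM and the mutants 64.3, 63.1 and 61.4 CPM. The groups did not overlap, with control library 2 just under mutant library 3. The difference was small (0.12, standard error 0.08, 95% interval -0.07 to 0.32, edgeR adjusted p = 0.318). With an offset for GC content it turned to -0.07 (edgeR adjusted p = 0.663, with a range of 0.22 to 0.778 across the alternatives).

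*Akt1s1* encodes PRAS40, an Akt substrate that binds raptor and inhibits mTORC1 (ENSMUSG00000011096.17; chromosome 7, 44848991 to 44855421, plus strand). It was the steadiest member, at 57.3, 54.9 and 56.2 CPM in control libraries and 56.5, 57.7 and 57.4 CPM in mutant libraries. The groups overlapped, and the 95% interval of the fold change ran from -0.15 to 0.21 around a value of 0.03 (standard error 0.08, edgeR adjusted p = 0.826). It has the highest GC content of the members, 60.7%, and with a GC offset its value turned to -0.24 (edgeR adjusted p = 0.116, where all alternatives ran from 0.116 to 0.992).

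*Deptor* encodes an inhibitor that binds mTOR in both complexes (ENSMUSG00000022419.16; chromosome 15, 55112317 to 55259271, plus strand). It was the member with the fewest counts, 192 to 371 per library. Its level was 5.22, 6.23 and 6.01 CPM in the controls against 4.94, 3.33 and 4.36 CPM in the mutants. Mutant library 1 came close to control library 1, but the groups did not overlap. The fold change was -0.47 (standard error 0.18, 95% interval -0.88 to -0.06, edgeR adjusted p = 0.0949). With an offset for GC content and length it was -0.11 (edgeR adjusted p = 0.607, with a range of 0.0588 to 0.607 across the alternatives), and without mutant library 2 it was -0.31. *Deptor* overlaps *Gm9920* over 303 exon bases on the other strand, and the sum of both had a fold change of -0.43 (edgeR adjusted p = 0.115).

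*Rictor* encodes the defining scaffold of mTORC2 (ENSMUSG00000050310.9; chromosome 15, 6708379 to 6800401, plus strand). Control libraries 1, 2 and 3 gave 36.0, 43.1 and 41.9 CPM, and mutant libraries 32.9, 25.4 and 37.0 CPM. Control library 1 lay below mutant library 3, so the groups overlapped. The fold change was -0.34 (standard error 0.15, 95% interval -0.68 to -0.01, edgeR adjusted p = 0.123), and -0.20 without mutant library 2 (edgeR adjusted p = 0.211). This gene has the lowest GC content of the members, 42.5%, and the value moved to -0.15 with a GC offset and turned to 0.09 with an offset for GC content and length (edgeR adjusted p = 0.477 and 0.535, with a range of 0.0387 to 0.535 across the alternatives).

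*Mapkap1* encodes SIN1, which carries substrates such as Akt to mTORC2 (ENSMUSG00000038696.14; chromosome 2, 34406771 to 34624950, plus strand). Its level in the controls was 59.2, 58.4 and 55.95 CPM. In the mutants it was 43.1, 33.9 and 53.8 CPM, a spread several times that of the controls (SD 9.97 against 1.70 CPM). All mutant libraries were below the controls, but library 3 only just. The fold change was -0.41 (standard error 0.16, 95% interval -0.77 to -0.05, edgeR adjusted p = 0.093). Without mutant library 3 it was -0.59 and passed the test (edgeR adjusted p = 0.0196), whereas without mutant library 2 it was -0.25 (edgeR adjusted p = 0.135). Over all alternatives it kept its sign with adjusted p-values from 0.0196 to 0.217. It was also the member whose value moved least with the offsets, at -0.43 with GC content and -0.41 with GC content and length.

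*Tsc1* encodes hamartin, which stabilizes tuberin in the TSC complex (ENSMUSG00000026812.16; chromosome 2, 28641228 to 28691167, plus strand). Levels were 22.3, 29.2 and 26.4 CPM in control libraries and 34.1, 37.9 and 29.9 CPM in mutant libraries. The highest control and the lowest mutant library were near each other, without overlap. Its unadjusted p-value in edgeR's fit, 0.0189, was the smallest among the members, with a fold change of 0.39 (standard error 0.13, 95% interval 0.08 to 0.69, adjusted p = 0.0713). It passed the test without mutant library 3 (0.46, edgeR adjusted p = 0.0451) and with an offset for GC content and length (0.53, edgeR adjusted p = 0.0438), and otherwise had adjusted p-values of up to 0.261.

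*Tsc2* encodes tuberin, the subunit that stimulates GTP hydrolysis by Rheb (ENSMUSG00000002496.10; chromosome 17, 24595816 to 24632630, minus strand). Its level was 82.6, 78.5 and 81.4 CPM in control libraries and 79.4, 86.5 and 87.1 CPM in mutant libraries. The groups overlapped, and the fold change was 0.06 (standard error 0.09, 95% interval -0.13 to 0.26, edgeR adjusted p = 0.624). *Tsc2* and *Pkd1* lie tail to tail and overlap over 693 exon bases on opposite strands, and *Tsc2* shares 5.94% of its 75-base stretches with *Pkd1*. Summed with *Pkd1* and 4 other genes sharing at least 20 stretches, the value was -0.12 (edgeR adjusted p = 0.442). That sum was 203 CPM in the controls against 80.8 CPM for *Tsc2* alone, so most of it was counted on the other genes.

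*Rheb* encodes the GTPase that the TSC complex holds inactive (ENSMUSG00000028945.9; chromosome 5, 24802823 to 24842624, minus strand). The control libraries were almost equal, at 43.0, 42.9 and 42.1 CPM. The mutant libraries lay on both sides of them, at 38.2, 36.4 and 44.6 CPM, and the groups overlapped. The fold change was -0.10 (standard error 0.10, 95% interval -0.33 to 0.13, edgeR adjusted p = 0.477).

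For the 6 members whose groups did not overlap, an exact permutation test over the 6 libraries gave p = 0.1. This is the smallest two-sided p that 3 libraries against 3 allow. Of all genes tested, 44.7% had groups without overlap. Among the mutant libraries, library 2 was farthest from the control mean in 8 of the 10 members and library 3 nearest in 7. Mutant library 2 also stood apart over all genes, at 50.6 on the second principal component against -28.1 and -34.9 for mutant libraries 1 and 3. It had the lowest median of long genes relative to short ones (-0.432 on the log2 scale, against -0.0888 and -0.102) and the highest of GC-rich genes relative to GC-poor ones (0.346, against 0.226 and 0.0992). The part of these features in the members' values was not tested. Leaving out mutant library 3 gave the only calls of members among the fits that left out 1 library, those of *Mapkap1* and *Tsc1*. That fit called 25.2% of all genes. *Mtor*, *Mlst8*, *Mapkap1*, *Deptor* and *Tsc1* kept the sign of their fold change in every alternative run. The other 5 members changed sign in at least 1 of them.

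GC content moved with the comparison over all genes. The median log2 fold change was -0.25 in the quartile of genes with the lowest GC content of the longest transcript, -0.07 and 0.09 in the middle quartiles and 0.20 in the highest. The members in the lowest quartile were *Rictor* (42.5%), *Deptor* (44.3%) and *Rheb* (44.7%), all with fold changes below 0. Those in the highest were *Mlst8* (54.7%), *Rptor* (56.5%), *Akt1s1* (60.7%) and *Tsc2* (54.7%), all with fold changes above 0. *Mtor* stood apart from this trend, with a GC content of 54.2% and a fold change of -0.29 in a quartile whose median was 0.09. *Mapkap1* was below the median of its quartile, -0.41 against -0.07, and *Tsc1* above it, 0.39 against 0.09. With a GC offset in edgeR's fit 7 members had values below 0 and 3 above, in place of 5 and 5, and none was called. The value of *Mtor* was then -0.44 (95% interval -0.75 to -0.14, edgeR adjusted p = 0.0613). With the offset for length added it was -0.18 (edgeR adjusted p = 0.199). The median of GC-rich genes relative to GC-poor ones was -0.281 to -0.152 in control and 0.0992 to 0.346 in mutant libraries (log2 scale). That of long genes relative to short ones was 0.0248 to 0.296 in control and -0.432 to -0.0888 in mutant libraries. The offsets were fitted to each library without regard to genotype. They can therefore also take out a genotype difference that goes with GC content or length. The part of GC content or length in the differences between genotypes was not tested beyond these fits.

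**Figure D2:**
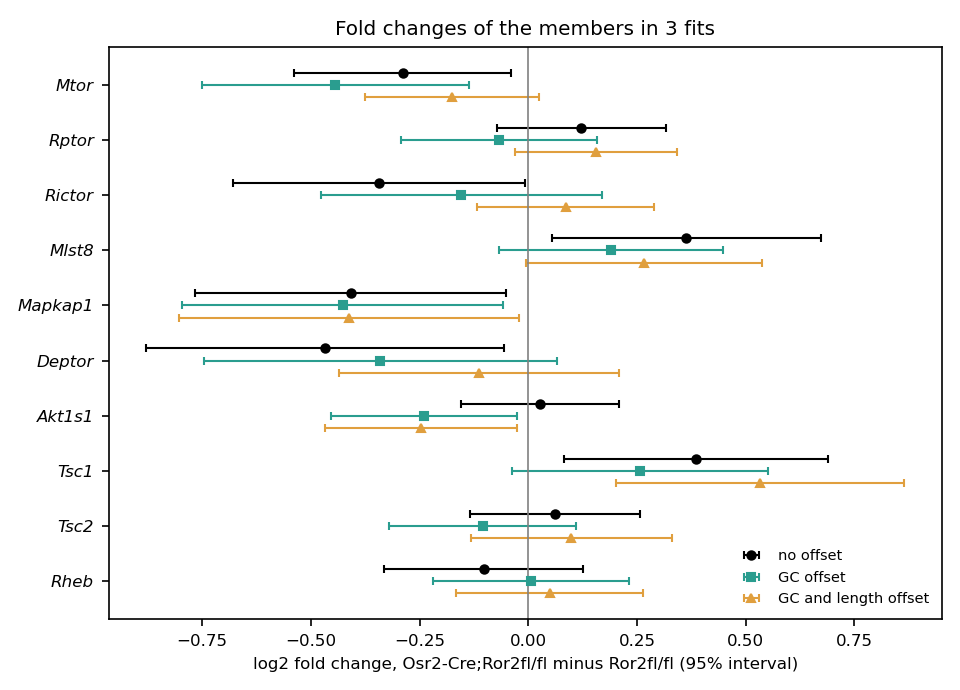
Log2 fold change of each gene, mutant minus control, with its 95% interval (horizontal axis) in edgeR's fit without an offset, with an offset for GC content, and with an offset for GC content and length. *Mapkap1* stays near -0.41 in all 3 fits, whereas *Rictor* goes from -0.34 to 0.09 and *Akt1s1* from 0.03 to -0.25.

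**Figure D3:**
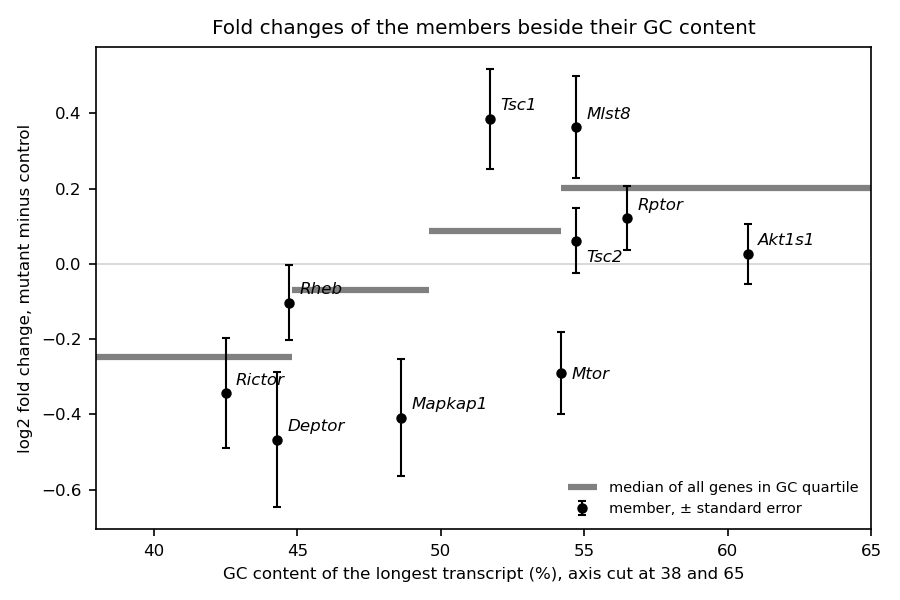
Log2 fold change of each gene, mutant minus control, with its standard error (vertical axis) against the GC content of its longest transcript in percent (horizontal axis). Grey bars are the medians of all genes tested in each quartile of GC content, from -0.25 to 0.20; *Mtor* and *Mapkap1* lie below the bar of their quartile and *Tsc1* above it.

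Compared per length, as CPM per kilobase of exon, the members spanned a wide range in these libraries. In control libraries (mean ± SD, n = 3) *Akt1s1* was highest at 18.3 ± 0.396, followed by *Mapkap1* at 14.3 ± 0.420 and *Tsc2* at 8.40 ± 0.219. *Mtor* was next at 7.26 ± 0.142, then *Rheb* at 5.53 ± 0.0633, *Rptor* at 4.29 ± 0.224 and *Mlst8* at 3.32 ± 0.199. The lowest were *Rictor* at 2.38 ± 0.225, *Tsc1* at 2.20 ± 0.295 and *Deptor* at 0.656 ± 0.0599. *Rictor* and *Tsc1* were the only neighbours in this order whose control libraries overlapped, and in the mutant libraries *Tsc1* (2.87 ± 0.336) came before *Rictor* (1.88 ± 0.346) with the rest of the order kept. With the length of the longest transcript in place of all exons, the 3 highest and the 2 lowest kept their places, while *Mtor* came after *Rheb* and *Rptor*, and *Mlst8* after *Rictor*.

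**Figure D4:**
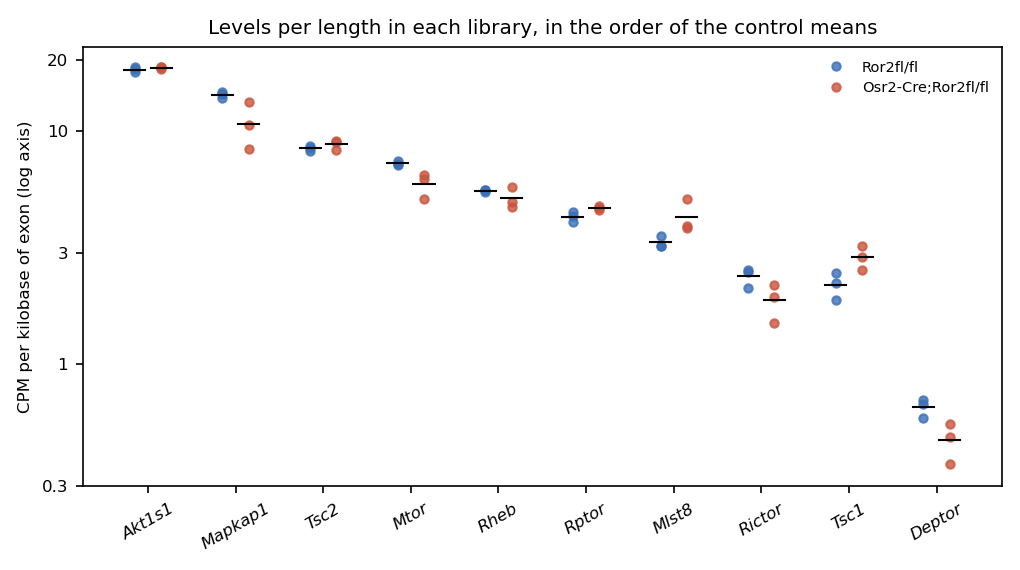
CPM per kilobase of exon (vertical log axis) for each gene in each library, in the order of the control means. Points are libraries and bars are group means; *Akt1s1* lies near 18 in both groups, *Deptor* is the only gene below 1, and *Rictor* and *Tsc1* exchange places between the groups.

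Within a library, the balance of the subunits that define the complexes can be set as a ratio of levels per length, described here without a test. *Rptor* over *Rictor*, the scaffolds of mTORC1 and mTORC2, was 1.91, 1.77 and 1.75 in the controls and 2.46, 3.12 and 2.09 in the mutants. The groups did not overlap, and the mean was 1.41 times that of the controls. *Rptor* over *Mtor* was 0.565 to 0.606 in control and 0.702 to 0.921 in mutant libraries. *Mlst8* over *Mtor* was 0.431 to 0.496 against 0.590 to 0.999. For *Rictor*, *Mapkap1* and *Deptor* over *Mtor*, and for *Tsc1* over *Tsc2* or *Rheb*, the groups overlapped. *Rictor* over *Mtor* in particular was 0.328 ± 0.0272 in control and 0.314 ± 0.0208 in mutant libraries (SD, n = 3). The numerators and denominators differ in GC content, and a ratio shows unequal values of a pair of genes without telling which of them differs. With a GC offset the log2 fold changes were -0.07 for *Rptor* and -0.15 for *Rictor*, against 0.12 and -0.34 without one. With GC content and length they were 0.16 and 0.09, so this pair differed less under the offsets. *Mtor* and *Mlst8* were at -0.44 and 0.19 with the GC offset, and at -0.18 and 0.27 with length added. How often other pairs of genes separate in this way was not tested.

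Genes around the complexes were taken from hand-written lists of 141 genes, of which 32, or 22.7%, were called, 18 higher and 14 lower in mutant libraries, beside 20.2% of all genes tested. The count was 4 without control library 2 and 4 without control library 3, or 2.84% each, beside 4.57% and 4.39% of all genes. Without mutant library 1 it was 18, or 12.8% beside 12.2% of all genes. With a GC offset it was 12, or 8.51%, and with an offset for GC content and length 15, or 10.6%, both under the 13.6% and 14.8% of all genes called in those fits. The first of these lists, the partners that assemble or accompany the complexes, resembled the members, with 0 of 9 called by edgeR, 2 at an unadjusted p-value under 0.05 and a median log2 fold change of 0.06. *Tti2*, which helps mTOR and related kinases to fold, was 12.3, 12.5 and 12.9 CPM in control libraries and 16.9, 16.4 and 13.3 CPM in mutant libraries (0.31, edgeR adjusted p = 0.103). *Rhebl1*, a relative of *Rheb*, stayed below 2.1 CPM in every library (0.73, standard error 0.30, edgeR adjusted p = 0.11), and the sum with 2 genes sharing its sequence gave 0.30. *Telo2*, a partner of *Tti2*, had a fold change of 0.31 (standard error 0.17, edgeR adjusted p = 0.203).

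The machinery that reports amino acids to mTORC1 had 10 of 30 genes called (33.3%, beside 20.2% of all genes). Of these 6 were higher and 4 lower, and the list had a median log2 fold change of 0.01. *Flcn*, whose product folliculin acts on the Rag GTPases, rose from 19.8, 19.97 and 21.02 CPM in the controls to 33.0, 40.5 and 33.8 CPM in the mutants. Its fold change of 0.82 (standard error 0.11, edgeR adjusted p = 0.00291) passed the test in all 18 alternatives. *Lamtor4* and *Lamtor1*, subunits of the Ragulator that anchors the Rag GTPases to lysosomes, rose by 0.58 and 0.41 on the log2 scale (edgeR adjusted p = 0.0145 and 0.0281). *Nprl3* of GATOR1 (0.69), *Itfg2* of KICSTOR (0.63) and the arginine sensor *Castor1* (0.57) also rose. *Bmt2*, the S-adenosylmethionine sensor also called SAMTOR, fell from 25.8, 30.2 and 29.0 CPM to 18.0, 16.01 and 18.6 CPM (-0.69, standard error 0.11, edgeR adjusted p = 0.0059). With the GC offset its value was -0.31 and no longer passed (edgeR adjusted p = 0.112, where all alternatives ran from 5.14e-06 to 0.208). *Seh1l* of GATOR2 (-0.39), the sestrin *Sesn3* (-0.76) and *Castor2* (-0.78) fell as well. Only *Flcn* and *Bmt2* of this list were called without control library 2 and without control library 3, and 6 of its genes without mutant library 1. Those fits called 4.57%, 4.39% and 12.2% of all genes, and the fits with the offsets below 13.6% and 14.8%. With the GC offset *Nprl3*, *Castor1*, *Seh1l* and *Sesn3* were not called either, and with the offset for GC content and length *Flcn*, *Itfg2* and *Castor2* were the only ones of the 10 that were.

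Upstream of mTORC2 and of the TSC complex, 2 of 15 genes of insulin and phosphoinositide 3-kinase signaling were called (13.3%, beside 20.2% of all genes). Both were lower, and the median of the list was -0.22. *Pik3r3*, a regulatory subunit of phosphoinositide 3-kinase, fell from 45.0, 51.5 and 48.0 CPM to 37.0, 37.5 and 36.9 CPM (-0.37, standard error 0.09, edgeR adjusted p = 0.0239). *Pik3r1*, another regulatory subunit, did not pass (-0.48, standard error 0.15, edgeR adjusted p = 0.056). Of 9 genes of the LKB1 and AMPK kinases, which inhibit mTORC1 when energy is short, 2 were called (22.2%) and both were lower. These were *Cab39*, a scaffold of LKB1 (-0.47, edgeR adjusted p = 0.0185), and *Prkaa2*, a catalytic subunit of AMPK (-0.54, edgeR adjusted p = 0.0415), while *Prkab1* of AMPK had 0.33 (edgeR adjusted p = 0.076). Neither these calls nor those of the growth factor list were kept with a GC offset, without control library 2 or without control library 3. Those fits called 13.6%, 4.57% and 4.39% of all genes. *Pik3r3* was also not called without mutant library 1, and *Prkaa2* was called in no fit that left out 1 library except that without mutant library 3. The values with the GC offset were -0.25 for *Pik3r3*, -0.37 for *Cab39* and -0.27 for *Prkaa2*.

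Among 19 direct targets of the complexes, 7 were called (36.8%, beside 20.2% of all genes), 4 higher and 3 lower, with a median of 0.03. *Ulk1*, the kinase that starts autophagy, rose from 85.3, 86.1 and 89.2 CPM to 113, 110 and 117 CPM (0.38, standard error 0.09, edgeR adjusted p = 0.0204), and its partner *Atg13* by 0.30. *Maf1*, a repressor of RNA polymerase III, rose by 0.39 (edgeR adjusted p = 0.0182) and *Tfe3*, a transcription factor of lysosomal genes, by 0.34. *Rps6kb1*, which encodes p70S6K, fell from 54.8, 54.8 and 55.7 CPM to 43.1, 38.1 and 42.2 CPM (-0.42, standard error 0.09, edgeR adjusted p = 0.016). *Grb10*, an adaptor that dampens insulin signaling, fell by 0.49, and *Prkca*, a kinase that depends on mTORC2, by 0.59. Of the 19, none was called without control library 2 or without control library 3, 3 without mutant library 1 and 4 without control library 1. Those fits called 4.57%, 4.39%, 12.2% and 13.5% of all genes. With the GC offset only *Grb10* was called, beside 13.6% of all genes, and *Rps6kb1* was then at -0.09 and *Ulk1* at 0.17. The lists hold genes of both directions, and they were written with results of these libraries known, so their counts are a description.

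**Figure D5:**
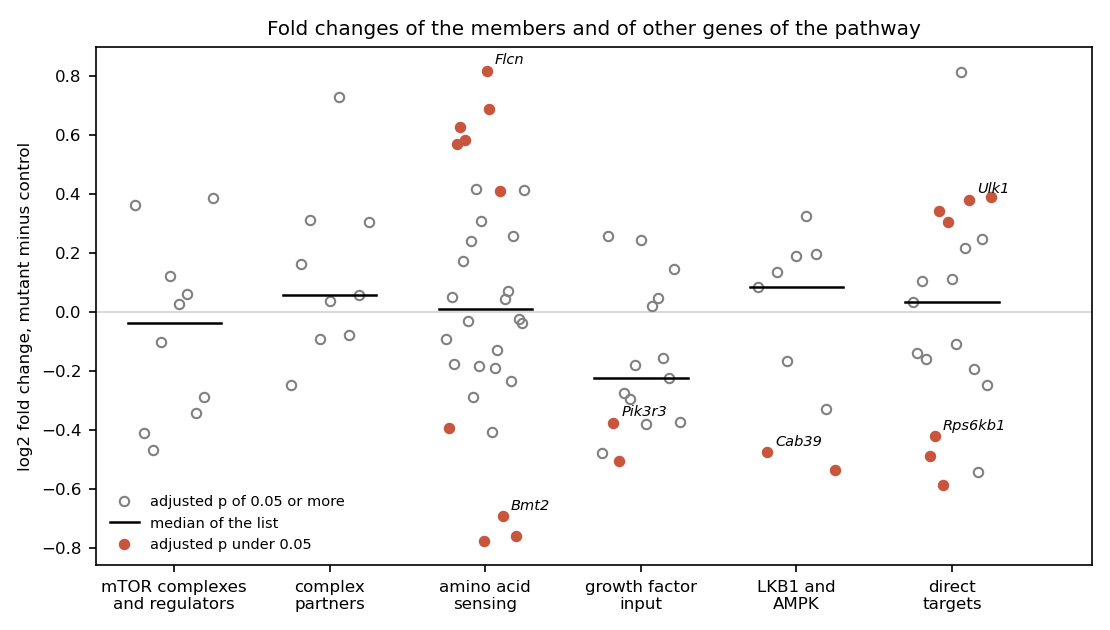
Log2 fold change, mutant minus control (vertical axis), of the 10 members and of the genes of the 5 neighbouring lists, with list medians as bars. Filled points passed edgeR's test (adjusted p under 0.05), as 20.2% of all genes tested did. None of the 10 members and none of the 9 complex partners passed. The counts were 10 of 30 for amino acid sensing, 2 of 15 for growth factor input, 2 of 9 for LKB1 and AMPK, and 7 of 19 for direct targets.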

How the data were processed

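The authors sequenced single-end reads of 75 cycles and deposited estimated counts per gene, of which 47.8% are whole numbers, zeros included. The methods name TopHat, and the submitters' processing notes name STAR 2.6.1d and Partek with mm10; which of them made the counts, and how reads shared by genes were divided, is not given in the sources used here. A normalized signal for 22061 genes was deposited too, the estimated count plus 1 times a factor for its library, without division by length although the methods name RPKM. It was used only in alternatives. Groups came from the genotype labels. The table holds 6 columns of other samples, which were not used.

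Estimated counts were rounded, filtered with filterByExpr and scaled by TMM. The genotypes were tested with edgeR's quasi-likelihood F-test (R 4.3.3, edgeR 4.0.16, two-sided), without a covariate, with Benjamini-Hochberg adjustment across the 19330 genes. For exact permutation tests a prior count of 2 was added before taking log2 CPM. The test was checked on simulated data. Within groups, libraries differed beyond sampling noise (chi-square per gene of at least 44.7), so none is a copy of another, and each was counted as a replicate because the labels list it as a sample of its own. Coordinates, exon lengths, GC content and shared 75-base stretches are from GENCODE M21 on GRCm38, in which all 27506 genes were found. Alternatives were other scalings and filters, DESeq2 1.42.0, limma 3.58.1 (voom with quality weights, and limma-trend on log2 of the normalized table), offsets for GC content and length fitted as splines with 5 degrees of freedom, the sample index as a block, summed counts of genes that share sequence, and leaving out each library. The text names all members, *Ror2* and the 3 genes with the smallest p-values in each list, except 1 gene that is not reported here; other called genes were named after their values were seen. Members, lists and alternatives were chosen with earlier results of these data known.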

Additional observations from a re-analysis of the deposited data

How the results depend on the processing

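The number of members called was 0 in edgeR's fit and in most alternatives. It was 3 with limma voom and quality weights (*Rictor*, *Mlst8*, *Mapkap1*), 1 with an offset for GC content and length (*Tsc1*), and 0 to 2 over the fits that left out 1 library. These fits called, in the same order, 32.8%, 14.8% and 4.39% to 25.2% of all genes. The counts of pathway genes and of all genes called, 32 and 3906 in edgeR's fit, were 47 and 6341 with limma voom, 12 and 2638 with a GC offset and 15 and 2853 with an offset for GC content and length, and ran from 4 to 37 and from 872 to 5001 over the fits that left out 1 library. All genes called were fewest without control library 2 (910) and control library 3 (872), and 2404 without mutant library 1. With the sample index as a replicate block, 0 members, 13 pathway genes and 2013 genes were called, and with the block and the GC offset 0, 5 and 1292. Whether the index marks pairs of libraries or a shared batch is not known. The deviations of libraries with the same index had correlations of -0.1, -0.0795 and -0.00375. Those of libraries with different indexes ran from -0.0374 to 0.1. With 3 libraries per group, values this near to each other cannot show whether pairing is present or absent. Members that changed sign under the GC offset were *Rptor* (-0.067, and -0.066 with the block added), *Akt1s1* (-0.24 and -0.24), *Tsc2* (-0.10 and -0.11) and *Rheb* (0.0067 and 0.0031). With the offset for GC content and length, *Rictor* was at 0.086, *Akt1s1* at -0.25, *Rheb* at 0.049 and *Rps6kb1* at 0.021, and *Tsc2* summed with the genes sharing its sequence was at -0.12. None of these reversed values passed the test, and the cause was not tested. *Fdft1* summed with the genes sharing its sequence was at 0.01 (edgeR adjusted p = 0.971), while the sum of *Tti2* was at 0.39 and passed (edgeR adjusted p = 0.0189). Among the members, depth limits *Deptor* most, with 192 to 371 counts per library.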

Other observations

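Genes further downstream of mTORC1 were also counted, in lists written with results of these libraries known. Of 18 genes of the ATF4 program, which mTORC1 promotes and which serves amino acid uptake and serine synthesis, 4 were called, 3 higher and 1 lower in mutant libraries. *Atf4* rose by 0.63 on the log2 scale, and *Slc7a5*, a transporter of large neutral amino acids, rose from 45.8, 39.3 and 42.0 CPM to 69.2, 62.9 and 61.0 CPM (edgeR adjusted p = 0.00684). Successive enzymes of serine synthesis went opposite ways. *Phgdh*, the first of them, rose from 30.3, 20.7 and 21.6 CPM to 48.0, 50.2 and 42.9 CPM (log2 fold change 0.96, standard error 0.15), whereas *Psat1*, the next, fell from 19.8, 24.2 and 23.5 CPM to 12.0, 11.2 and 10.7 CPM (-0.995, standard error 0.12). Both passed the test in all 18 alternatives, with *Phgdh* at 0.63 when summed with 6 genes sharing its sequence (edgeR adjusted p = 0.0178).

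Of 21 genes of the SREBP program of lipid synthesis, 3 were called and all were higher, while the median of the list was -0.03. These were *Srebf1*, which encodes SREBP1 (0.58), *Mvd* (0.70) and *Fdft1* (0.40), enzymes of the sterol pathway. Summed with 2 genes sharing its sequence, *Fdft1* was at 0.01 and did not pass (edgeR adjusted p = 0.971, with a range of 0.0071 to 0.971 across the alternatives). Of 20 lysosomal genes, 4 were called, with *Mcoln1*, a lysosomal calcium channel (0.54), and *Ctsf*, a protease (0.31), higher and *Lamp2*, a lysosomal membrane protein (-0.60), and *Hexa*, a hexosaminidase subunit (-0.44), lower. The counts of the 3 lists were near the 20.2% of all genes called. With a GC offset, *Srebf1* was at 0.36, *Mvd* at 0.46, *Lamp2* at -0.24 and *Mcoln1* at 0.45, and none of these passed the test, nor did *Fdft1* (0.27) or *Ctsf*, while *Hexa* did. Without control library 2, or without control library 3, *Phgdh* and *Psat1* were the only genes of these 3 lists called, beside 4.57% and 4.39% of all genes. The lysosomal list had 2 calls without control library 1 and 2 without mutant library 1, and *Srebf1* was the only SREBP gene called without mutant library 1.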
